A study of Mus musculus with 8 samples.

Results

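Endothelial cells line blood and lymphatic vessels. The 36 genes described here mark those cells or govern their growth, and all 36 had at least 1 probe set of their own among the 18193 genes that the array names on a single-gene probe set. A gene was taken where a probe set carried exactly that symbol, and the probe set with the highest mean over all arrays stands for it. By role, 27 are genes of vessels in general, 4 are arterial genes and 5 are lymphatic genes. Total RNA from palatal shelves of mouse embryos at embryonic day 14.5 was measured on 8 Affymetrix arrays, whose probe sets are groups of short probes for 1 transcript. Of these, 4 carried R26Pax3/Pax3 (called mutant here), in which Pax3 sits in the Rosa26 locus, and 4 were wild type littermates (numbered 1, 3, 4 and 7, and 2, 6, 8 and 11, in the labels). Embryos of both groups came from a C57BL/6 and SV129 cross. No Cre or other driver of the allele is named, and the cells that express it are not given. Whether a sample is 1 embryo or a pool is not given either, so the p-values rest on the spread among these 8 samples, which may be partly technical.

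Blood vessels grow under VEGF, which acts on the receptors Kdr and Flt1, and under angiopoietins, which act on Tek and its partner Tie1. Factors of the ETS family (Erg, Fli1, Ets1) and of the SoxF family (Sox7, Sox17, Sox18) set up and keep endothelial identity. Notch signalling through Dll4 favours the arterial state, and Prox1 turns venous endothelium into lymphatic endothelium. In the palate, vessels run through the mesenchyme of the shelves and supply the bone that forms in them.

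Because ETS factors bind sites with a GGAA core and Sox factors bind ACAAT-like sites, the windows before the start sites of 2 receptor genes are shown as examples of where such letters fall. The windows run from 250 bases before to 50 after a start in RefSeq, build GRCm38.p6, 5′ to 3′ on the strand of the gene. Kdr lies at chr5:75978406-75978705 (minus strand) and Tek at chr4:94739039-94739338 (plus strand). Capitals mark, on either strand, the motif CCGGAA, the motif CAGGAA (both ETS-like) and the motif ACAAT, and in Tek a pair of matches overlaps by 1 base.
Kdr: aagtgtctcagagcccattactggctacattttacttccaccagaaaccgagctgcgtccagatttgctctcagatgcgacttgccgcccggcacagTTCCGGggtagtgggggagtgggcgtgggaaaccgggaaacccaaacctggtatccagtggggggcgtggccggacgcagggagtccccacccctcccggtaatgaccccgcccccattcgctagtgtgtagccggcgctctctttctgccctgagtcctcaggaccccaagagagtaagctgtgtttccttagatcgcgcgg
Tek: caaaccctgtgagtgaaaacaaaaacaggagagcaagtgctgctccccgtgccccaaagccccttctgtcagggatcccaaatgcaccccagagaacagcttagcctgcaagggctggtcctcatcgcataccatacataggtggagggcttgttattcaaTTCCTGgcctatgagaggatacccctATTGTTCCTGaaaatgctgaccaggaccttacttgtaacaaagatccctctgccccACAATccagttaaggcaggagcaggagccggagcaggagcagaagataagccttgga
RefSeq windows were matched by symbol for 18 of the 36 genes, with 23 windows in all. CAGGAA was found in 11 of these 23 (47.8%, against 30.6% of all 32851 windows), in Apln, Cd34, Egfl7, Emcn, Eng, Erg, Nrp2, Robo4, Tek and Tie1. CCGGAA was found in Kdr alone (4.35%, against 14.9% of all windows), and ACAAT in 6 windows (26.1%, against 31.0%). These are matches of letters and no measurement of binding.

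The signals are linear MAS5 intensities. The medians of the 8 arrays lay between 43.5 and 44.8, and signals near or under that level may be background. Log2 fold changes are differences of mean log2(signal + 16), mutant less wild type. They are given with the standard error (SE) from limma and p-values adjusted over the 27022 probe sets tested. Pax3 itself read 619 ± 88.8 against 162 ± 14.6, and Gt(ROSA)26Sor, the transcript of the locus that holds the allele, read 19.8 ± 7.46 against 337 ± 53.6 (SD, n = 4 each), without overlap, as the labels have it. The palatal mesenchyme genes Osr2, Shox2 and Tbx22 lay above the median on 8 of 8 arrays.

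No endothelial gene passed the test between genotypes. Of the 36, 0 were called at a limma adjusted p under 0.05, where 0.0148% of all probe sets were called, and each of the 36 had an adjusted p of 1. At an unadjusted p under 0.05 there were also 0, where 4.86% of all probe sets passed. In none of the 36 did the 4 arrays of a genotype lie apart from the other 4, against 2.73% of all probe sets. The log2 fold changes ran from -0.31 for Prox1 to 0.30 for Nos3, with 20 genes higher and 16 lower and a median of 0.02. Over all probe sets tested, 50.3% were higher and the median was 0.00. In whole tissue, fewer endothelial cells and less RNA per endothelial cell cannot be told apart.

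The size of a difference that these arrays leave room for, in log2 signal with the constant added, is given by the 95% intervals. For 31 of the 36 genes the whole interval lay between -0.5 and 0.5 on the log2 scale. The 5 others were Nos3 (-0.07 to 0.67), Sox17 (-0.14 to 0.57), Prox1 (-0.66 to 0.03), Lyve1 (-0.70 to 0.26) and Pdpn (-0.89 to 0.79). The intervals reached 0.20 to either side for Egfl7 and 0.84 for Pdpn. These widths bound what 4 arrays a genotype could show on this scale, and they do not show that levels were alike. The constant added before the log makes differences between dim signals smaller. With a constant of 1 in its place, Prox1 had -0.45, where -0.31 is reported. The 31 genes include Dll4 and Acvrl1, which exceeded the array median on only 3 and 5 of 8 arrays. For genes so near background the intervals do not bound the change in transcript level.

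**Figure D1:**
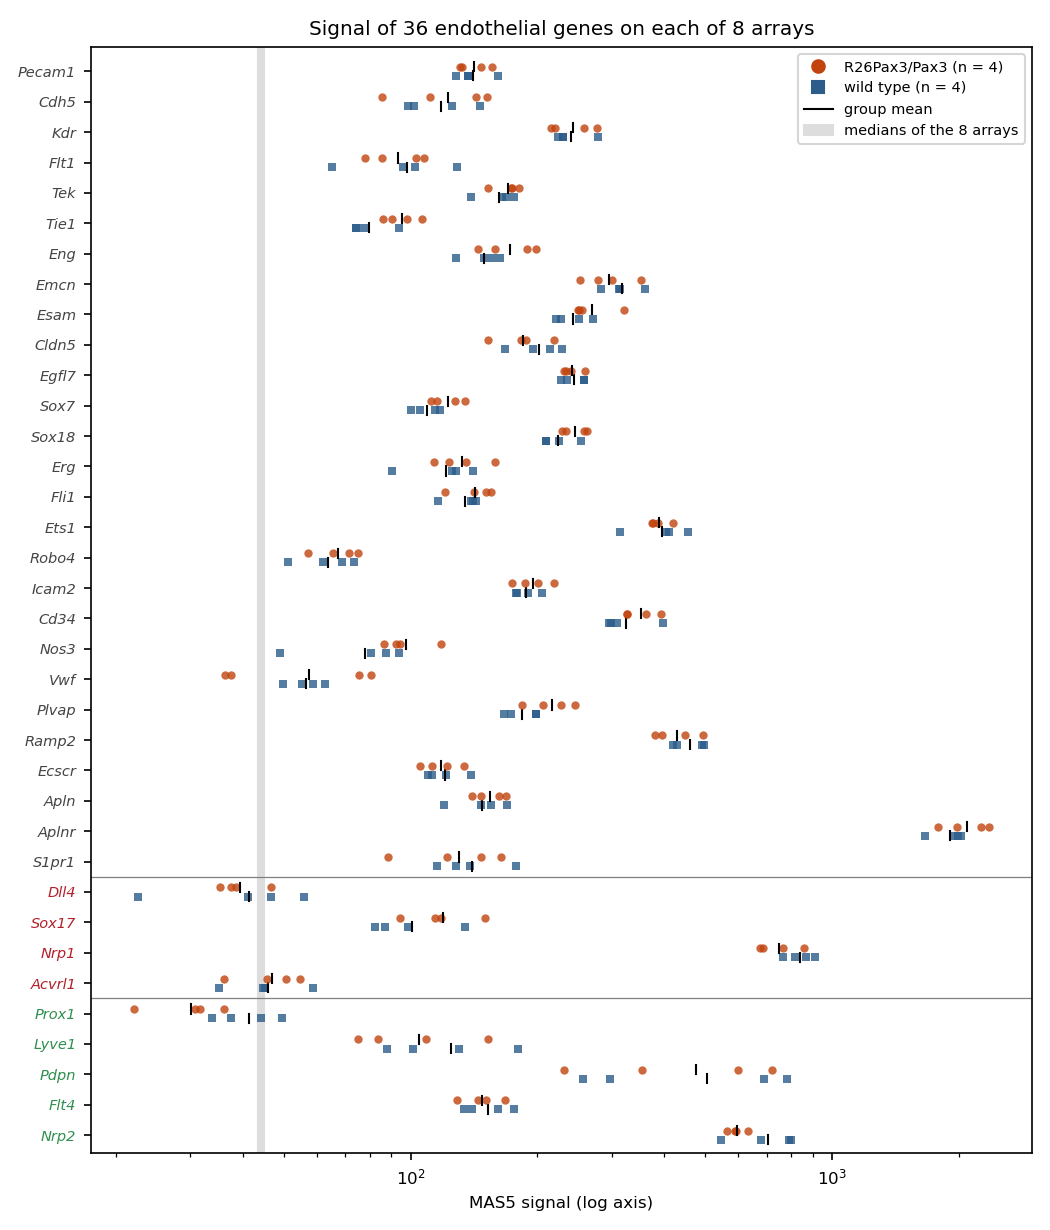
MAS5 signal (log axis) of 36 endothelial genes on each of 8 arrays, circles for R26Pax3/Pax3 and squares for wild type (n = 4 each), with black bars for group means and a grey band for the medians of the arrays. Vessel genes are in grey type, arterial in red and lymphatic in green. The groups overlap for every gene, and Pdpn spreads widely within both.

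**Figure D2:**
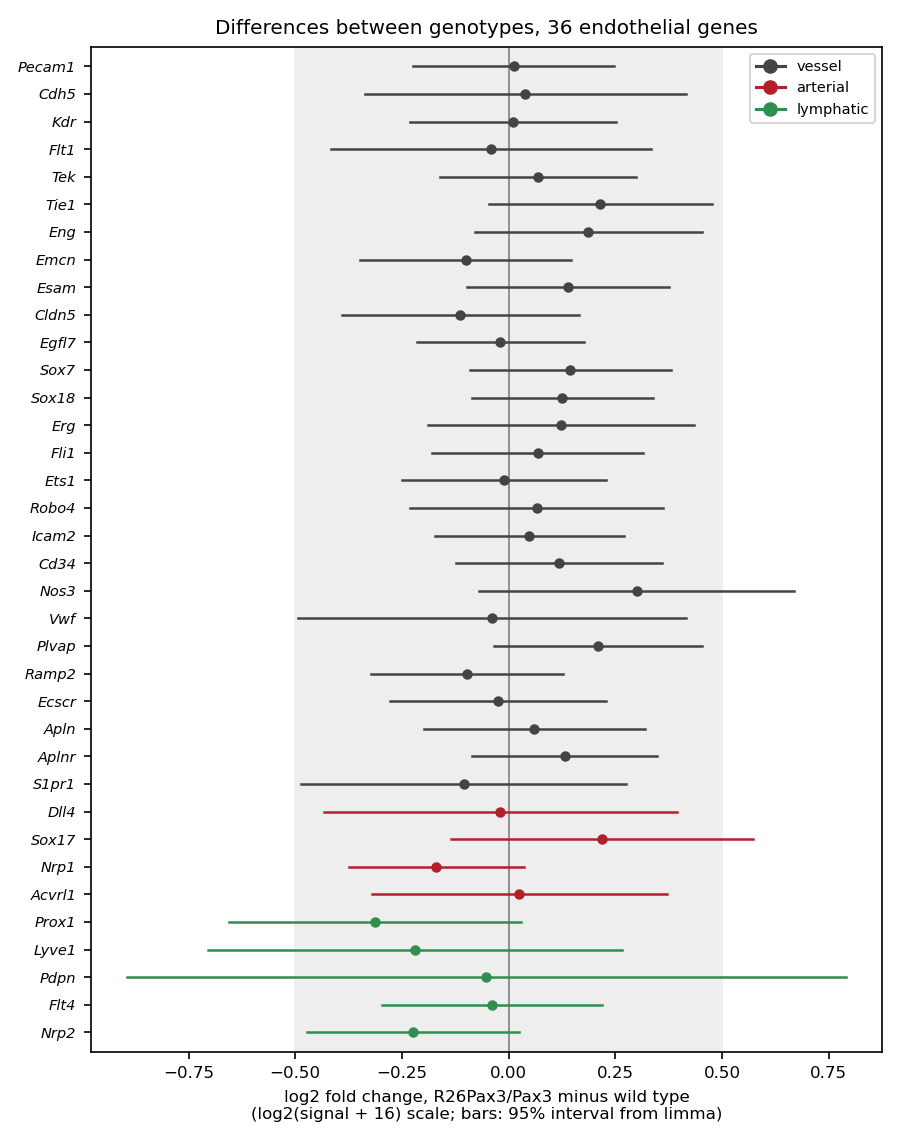
Log2 fold change (R26Pax3/Pax3 minus wild type) of the 36 genes with limma's 95% interval, coloured by role. Every interval spans 0, and those of Nos3, Sox17, Prox1, Lyve1 and Pdpn reach beyond the grey band from -0.5 to 0.5.

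Of the 27 genes of vessels in general, 18 were higher and 9 lower in R26Pax3/Pax3, with a median of 0.06, and 0 passed the test. All except Vwf were above the median signal on every array. Pecam1, a junctional adhesion molecule of endothelium, read 156.2, 147.1, 132.5 and 131.1 in R26Pax3/Pax3 replicates 1, 3, 4 and 7. It read 161.1, 128, 136.6 and 136.8 in wild type replicates 2, 6, 8 and 11. The highest and the lowest of the 8 were both wild type, and the means were 142 ± 12.1 and 141 ± 14.3 (SD, n = 4 each), which gave 0.01 (SE 0.11) on the log2 scale. Cdh5, the cadherin of endothelial junctions, read 111.2, 151.4, 142.9 and 85.4 in mutant and 125.3, 101.8, 98.4 and 145.8 in wild type arrays, in the same order. Here the mutant arrays held both extremes, and the log2 fold change was 0.04 (SE 0.17).

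Of the receptors, Kdr, which carries most VEGF signalling, read 257.3, 277.1, 219.7 and 215.7 in mutant and 278.7, 229.9, 229.5 and 223.2 in wild type arrays. Wild type replicate 2 was the highest and mutant replicate 7 the lowest, and the log2 fold change was 0.01 (SE 0.11). Flt1, which binds VEGF with little signalling of its own, had -0.04 (SE 0.17). Tek, the angiopoietin receptor, had 0.07 (SE 0.11). Tie1, its partner, read 97.8, 106.3, 86.1 and 90.3 in mutant and 93.9, 74, 77.4 and 74.1 in wild type arrays. All except wild type replicate 2 lay in genotype order, and the log2 fold change of 0.21 (SE 0.12) did not pass (limma adjusted p = 1, unadjusted 0.0983). Eng, a co-receptor for TGF-beta and BMP ligands in endothelium, had 0.19 (SE 0.12) on its brighter probe set. Aplnr and its ligand Apln, which guide vein and tip cell growth, had 0.13 and 0.06. The sphingosine phosphate receptor S1pr1 had -0.11, the guidance receptor Robo4 had 0.07, and Ramp2, which makes the adrenomedullin receptor with Calcrl, had -0.10.

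Of 5 transcription factors of endothelial identity, 4 had higher means and 1 a lower mean in the mutant. The ETS factor Erg had 0.12 (133 ± 19.5 against 121 ± 21.5), and Fli1 had 0.07 (142 ± 15.4 against 135 ± 12.4). Without wild type replicate 2 these were 0.0060 and 0.0067, and among the first 4 arrays deposited they were -0.09 and -0.03. Ets1, which mesenchyme also makes, had -0.01 (389 ± 20.8 against 395 ± 59.1). The SoxF factors Sox7 and Sox18 had 0.14 (122 ± 10.5 against 109 ± 8.02) and 0.13 (246 ± 17.1 against 224 ± 20.7). None of these 5 passed the test.

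Surface, junction and secreted products of vessels went either way. Plvap, which forms the diaphragms of fenestrae and caveolae, had the smallest p of the vessel genes. It read 245.9, 227.7, 206.7 and 183.7 in mutant and 173, 198.7, 198.4 and 166.8 in wild type arrays. Only mutant replicate 7 lay among the wild type values, and the log2 fold change of 0.21 (SE 0.11) did not pass (limma adjusted p = 1, unadjusted 0.0858). Nos3, the endothelial nitric oxide synthase, had the largest difference of the vessel genes at 0.30 (SE 0.17, 97.7 ± 13.9 against 77.7 ± 19.9), and without wild type replicate 6, whose value of 49 was the lowest, it was 0.13. The tight junction gene Cldn5 had -0.11, the sialomucin Emcn -0.10, and the adhesion molecules Esam 0.14, Icam2 0.05 and Cd34 0.12. The secreted Egfl7, which vessels release into their matrix, had -0.02 and the motility regulator Ecscr had -0.03. Vwf, the platelet-binding glycoprotein of endothelium, read 80.6 and 75.3 in mutant replicates 1 and 3 but 36.2 and 37.5 in replicates 4 and 7, below the medians of those arrays, while wild type arrays lay between 49.9 and 62.7. Its log2 fold change was -0.04 although its mean signals were 57.4 and 56.6.

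Of the 4 arterial genes, 2 were higher and 2 lower, with a median of 0.00, and 0 passed the test. Dll4, the Notch ligand of arteries and tip cells, was near background at 35.2, 46.6, 37.4 and 38.4 in mutant and 22.5, 46.5, 41 and 55.7 in wild type arrays. It exceeded the array median on 3 of 8 arrays, so the log2 fold change of -0.02 (SE 0.19) says little about its level. Sox17, the SoxF factor of arteries, read 150.5, 114.3, 94.1 and 117.9 in mutant and 98.8, 134.4, 86.9 and 82.4 in wild type arrays. The ranges overlapped widely, and mutant arrays were higher by 0.22 on the log2 scale (SE 0.16, limma adjusted p = 1). Acvrl1, the endothelial receptor for circulating BMP ligands, had 0.02 (SE 0.16) and lay above the median on 5 of 8 arrays.

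Nrp1, a co-receptor for VEGF and semaphorins that mesenchyme and nerve also make, gave different answers on its 4 probe sets. The brightest, 1448943_at, read 764.2, 860.2, 675.7 and 687.6 in mutant and 911.5, 867.6, 765 and 816.5 in wild type arrays. Mutant replicates 1, 4 and 7 lay below all wild type arrays and replicate 3 among them, and the difference was -0.17 on the log2 scale (SE 0.09, limma adjusted p = 1, unadjusted 0.0964). Probe set 1448944_at had the lowest unadjusted p of all 59 endothelial probe sets tested, at 330 ± 52.7 against 427 ± 43.0 (SD, n = 4 each) and -0.36 (SE 0.12, limma adjusted p = 0.905). Probe sets 1418084_at and 1457198_at had 0.02 and -0.04, so a lower level of Nrp1 as a whole was not measured. Summed signals of 6 neural genes ran from 666 to 1041 in mutant and from 310 to 1193 in wild type arrays, and their part in the values of Nrp1 was not tested.

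All 5 lymphatic genes had lower means in R26Pax3/Pax3, with a median log2 fold change of -0.22, but 0 of them passed the test. Averaged over the 5 genes on each array, the log2 difference between genotypes was -0.17, with an SD of 0.18 within them. These array averages overlapped, with 0.22 in mutant replicate 1 and -0.06 in wild type replicate 8, as deviations from the mean of the 8 arrays. The median log2 fold change ran from -0.29 to -0.14 when 1 array was left out, the latter without mutant replicate 7. Lower means in both the first and the last 4 arrays deposited were found for 2 of the 5, Prox1 (-0.44 and -0.19) and Nrp2 (-0.25 and -0.20), whereas Flt4 had 0.08 and -0.15 and Pdpn -0.23 and 0.12. Prox1, the regulator of lymphatic fate, read 30.7, 22, 31.6 and 36.1 in mutant and 44.2, 33.7, 49.6 and 37.4 in wild type arrays. Mutant replicate 7 lay above wild type replicate 6, and the difference was -0.31 on the log2 scale (SE 0.16, limma adjusted p = 1, unadjusted 0.0697). All 4 mutant values and 3 of the 4 wild type values fell under the array median, where signal and background are not separated, so the size of this difference is unknown. The 2 other probe sets of Prox1 were dimmer and left out by the filter on low signals.

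Nrp2, a co-receptor for VEGFC on lymphatic endothelium that mesenchyme and nerve also make, had a lower mean on every one of its probe sets. The brightest read 630.7, 592.5, 587.3 and 564.7 in mutant and 546.5, 789.6, 678.8 and 800.2 in wild type arrays. Wild type replicate 2 was the lowest of all 8, and the 3 other wild type arrays were the highest. The log2 fold change was -0.22 (SE 0.11, limma adjusted p = 1, unadjusted 0.0720), and without wild type replicate 2 it was -0.34 (adjusted p = 0.768, unadjusted 0.00310). Its 3 other probe sets also had lower means, with -0.27 (unadjusted p 0.0451), -0.17 and -0.20 (adjusted p = 1 each). These probe sets read the same 8 samples and are not independent.

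Lyve1, a hyaluronan receptor of lymphatic endothelium and of some macrophages, read 152.4, 108.7, 75 and 83.6 in mutant and 101.1, 130.6, 88.1 and 179.8 in wild type arrays. The spread within each genotype exceeded the difference between them, with a log2 fold change of -0.22 (SE 0.22). Without wild type replicate 11, the highest array, it was -0.047, without mutant replicate 4 it was -0.10, and without mutant replicate 1, the highest mutant array, it was -0.39. Values of -0.35 without wild type replicate 8 and -0.14 without mutant replicate 7 also lay over 1.5 times away. Among the first 4 arrays deposited, which hold 2 of each genotype, the difference was 0.23, and among the last 4 it was -0.67. Of 19 macrophage genes tested, 12 were higher and 7 lower, and their summed signals ran from 2845 to 4786 in mutant and from 3305 to 3837 in wild type arrays. Their part in the values of Lyve1 was not tested. Flt4, the receptor for VEGFC, had the smallest difference of the lymphatic genes, at -0.04 (SE 0.12, 148 ± 16.1 against 153 ± 19.4).

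Pdpn, a membrane glycoprotein of lymphatic endothelium that bone cells, epithelia and mesenchyme also make, varied most within the genotypes. It read 720.9, 231.5, 599.6 and 354.3 in mutant and 689, 784, 297 and 256.2 in wild type arrays. In each genotype 2 arrays lay at about 600 or above and 2 below 400, so that the highest array was 3.39 times the lowest. Its SD within genotypes was 0.76 on the log2 scale, larger than that of 99.4% of all probe sets tested, where the median was 0.19. Between genotypes the log2 fold change was -0.05 (SE 0.39). Only 1 probe set reads this gene, and Pdpn was described array by array because of this spread, after its values were seen.

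**Figure D3:**
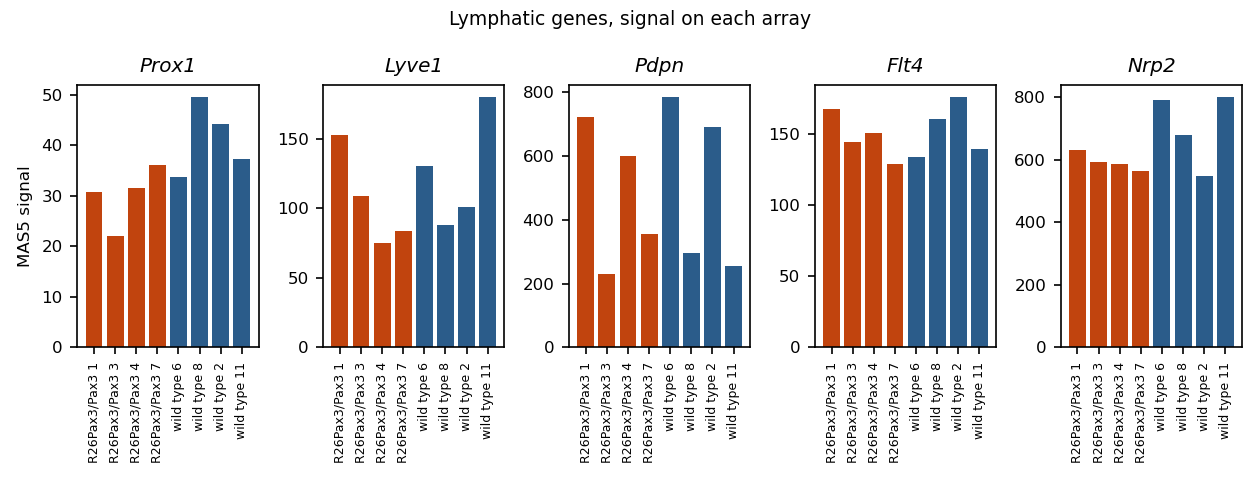
MAS5 signal (axis from 0) of the 5 lymphatic genes on each array, R26Pax3/Pax3 in orange and wild type in blue. Pdpn is high in replicates 1 and 4 of the mutant and 6 and 2 of the wild type, and the lowest Nrp2 value is wild type replicate 2.

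The genes had 64 probe sets in all, and 17 genes had more than 1. Of the 59 that were tested, 33 were higher and 26 lower, and 0 were called. At an unadjusted limma p under 0.05 there were 3 of the 59, where 4.86% of all probe sets tested passed. They were those of Nrp1 and Nrp2 named above and 1 of Eng. That dimmer probe set of Eng, 1432176_a_at, read 98.9, 97.2, 77.5 and 90.5 in mutant and 59.5, 84.6, 75.4 and 59.1 in wild type arrays (0.33, SE 0.14, limma adjusted p = 0.995). Mutant replicate 4 lay below wild type replicate 6, and the others lay in genotype order. The dimmer probe set of Fli1 had 0.35 (SE 0.16, limma adjusted p = 1), and its mean was 90.0 ± 8.00 against 68.8 ± 20.9 (SD, n = 4 each).

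**Figure D4:**
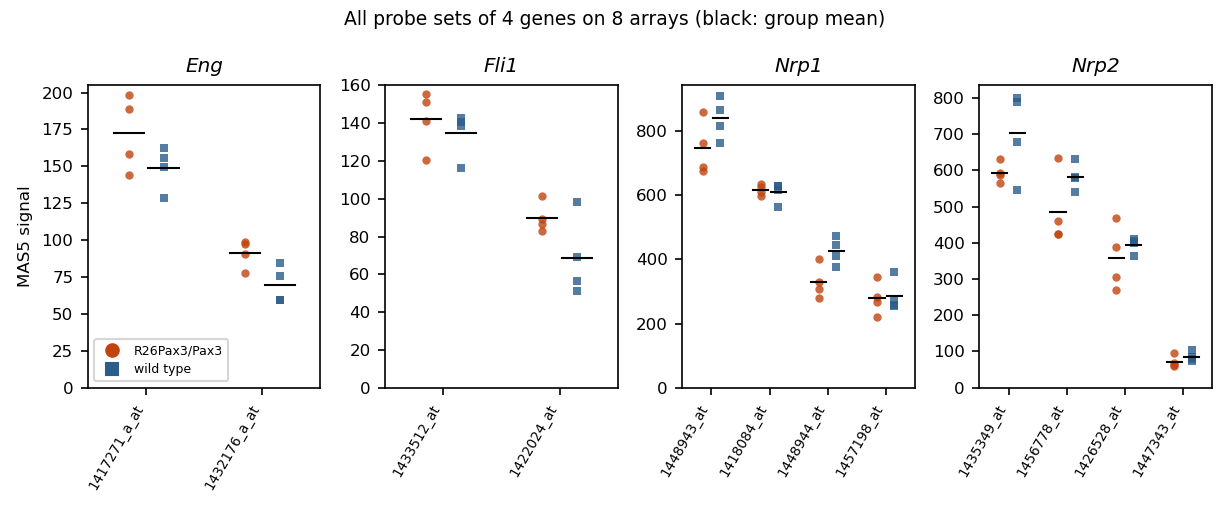
MAS5 signal (axis from 0) of every probe set of Eng, Fli1, Nrp1 and Nrp2 on the 8 arrays, circles for R26Pax3/Pax3, squares for wild type and black bars for means. Both probe sets of Eng and all 4 of Nrp2 differ in 1 direction, whereas those of Nrp1 do not.

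Signals of the vessel genes were also averaged on each array. The mean of the 27 vessel genes, as a log2 deviation from the mean of the 8 arrays, was 0.07, 0.08, 0.01 and -0.05 in mutant replicates 1, 3, 4 and 7 and 0.03, -0.07, -0.05 and -0.02 in wild type replicates 2, 6, 8 and 11. The difference between genotypes was 0.06, close to the SD of 0.05 within them, and the groups overlapped. This difference was 0.14 among the first 4 arrays deposited and -0.02 among the last 4. Wild type replicate 6 was the lowest array for 8 of the 27 genes, and mutant replicate 3 was the highest for 6. Within genotypes the vessel genes had a median SD of 0.16 on the log2 scale, against 0.19 over all probe sets tested. The brightest probe set stands for each vessel gene, so the 2 values are not matched for signal.

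Values were also taken apart by order of deposit. Among the first 4 arrays deposited 22 of 27 vessel genes were higher in the mutant (median 0.18), where 13849 of all 27022 probe sets were. Among the last 4 arrays 14 of 27 were higher (median 0.02), where 13145 of all probe sets were. Vessel genes with opposite signs in the 2 sets numbered 14 of 27 (51.9%), near the 56.3% of all probe sets. Plvap had 0.24 and 0.18 and Tek 0.08 and 0.06, whereas Pecam1 had 0.18 and -0.15, Cdh5 0.33 and -0.25, Kdr 0.20 and -0.18, and Flt1 0.34 and -0.43. Of all 36 genes, 19 (52.8%) had opposite signs. The interaction of genotype and set was called for 0 of 36 in limma, against 0.0222% of all probe sets. At an unadjusted p under 0.05 it passed for 3, Flt1, Vwf and Lyve1 (8.33%, against 11.2% of all probe sets). What the order of deposit stands for is not given in the labels.

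Other genes of vessels, taken from lists that hold none of the 36, also had 0 calls. Of 33 further endothelial genes tested, 17 were higher and 16 lower, with 0 called. An unadjusted limma p under 0.05 was found for 1 of the 33, where 4.86% of all probe sets passed. That was Vcam1, the leukocyte adhesion molecule, at 284 ± 19.8 against 353 ± 57.9 (-0.29, SE 0.11, limma adjusted p = 0.995). All 4 mutant arrays lay above all wild type arrays in 2 genes of this list (2.73% of all probe sets did not overlap, in either direction). These were Rhoj, a GTPase of endothelial cells, at 254 ± 7.19 against 218 ± 34.6 (0.22, SE 0.12), and the adhesion receptor Adgrf5 at 129 ± 4.52 against 117 ± 10.9 (0.13, SE 0.10). Of 19 vascular ligands and their partners tested, 9 were higher and 10 lower, and 0 passed at either level. Vegfa read 287 ± 45.1 against 309 ± 54.0 (-0.10, SE 0.14), and the angiopoietin Angpt1 read 482 ± 34.0 against 535 ± 65.7 (-0.14, SE 0.10).

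Of 16 further arterial and venous genes tested, 8 were higher and 8 lower, with 0 called. An unadjusted limma p under 0.05 was found for 2 of the 16, where 4.86% of all probe sets passed. Unc5b, a netrin receptor of arteries and tip cells, read 152.8, 173.4, 138.5 and 141.3 in mutant and 227.9, 167.8, 248.1 and 230.3 in wild type arrays. Wild type replicate 6 lay below mutant replicate 3 and the others lay in genotype order (-0.48, SE 0.13, limma adjusted p = 0.655). The Notch ligand Jag1, which epithelium and mesenchyme also make, read 963 ± 169 against 778 ± 80.4 (0.29, SE 0.12, limma adjusted p = 1).

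Cells that lie beside or inside vessels were read from their own lists. Of 14 genes of mural cells, the pericytes and smooth muscle around vessels, 8 were higher and 6 lower, and 0 were called. Only 1 of the 14 had an unadjusted limma p under 0.05, where 4.86% of all probe sets passed. That was Tagln, a smooth muscle actin-binding protein that other contractile cells make too, at 367.7, 292.7, 270.3 and 280.4 in mutant and 201, 107.9, 138.3 and 202.3 in wild type arrays (0.87, SE 0.18, limma adjusted p = 0.375). Its groups did not overlap, whereas those of the mural list as a whole did. Of 7 red cell genes, 6 were higher and 1 lower with 0 called, and 1 had an unadjusted limma p under 0.05 (4.86% of all probe sets). The mean log2 deviation of the red cell list was above wild type in all 4 mutant arrays, with a difference of 0.25. This difference was 0.08 among the first 4 arrays deposited and 0.41 among the last 4. Wild type replicates 2 and 11 had -0.38 and -0.19, whereas replicates 6 and 8 had 0.03 and 0.05. Summed signals of red cell genes ran from 5213 to 7872 in mutant and from 4979 to 6003 in wild type arrays. Of 5 megakaryocyte genes tested, 1 was higher and 4 lower with 0 called. The part of blood cells in the vessel genes was not tested. Of 14 epithelial genes, 11 were higher and 3 lower with 0 called. An unadjusted limma p under 0.05 was found for 6, where 4.86% of all probe sets passed. In 3 of the 14 the groups did not overlap, against 2.73% of all probe sets. The mean log2 deviation of the epithelial list was above wild type in all 4 mutant arrays, with a difference of 0.32. Its summed signals overlapped, from 6675 to 8470 in mutant and from 5804 to 6897 in wild type arrays. All 8 muscle genes tested had lower means, but their summed signals ran from 806 to 6101 in mutant and from 2690 to 6938 in wild type arrays. Mutant replicate 7 was the lowest array for all 8, with a mean log2 deviation of -2.02. The difference between genotypes in that mean was -0.02 among the first 4 arrays deposited and -1.34 among the last 4. Of 12 mesenchyme genes, 4 were higher and 8 lower with 0 called. At an unadjusted limma p under 0.05 there were 4, 1 higher and 3 lower, where 4.86% of all probe sets passed. Their summed signals overlapped, from 35325 to 42031 in mutant and from 38567 to 47528 in wild type arrays. The part of these tissues in the values of Pdpn, Nrp1 and the other genes that they share with endothelium was not tested.

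**Figure D5:**
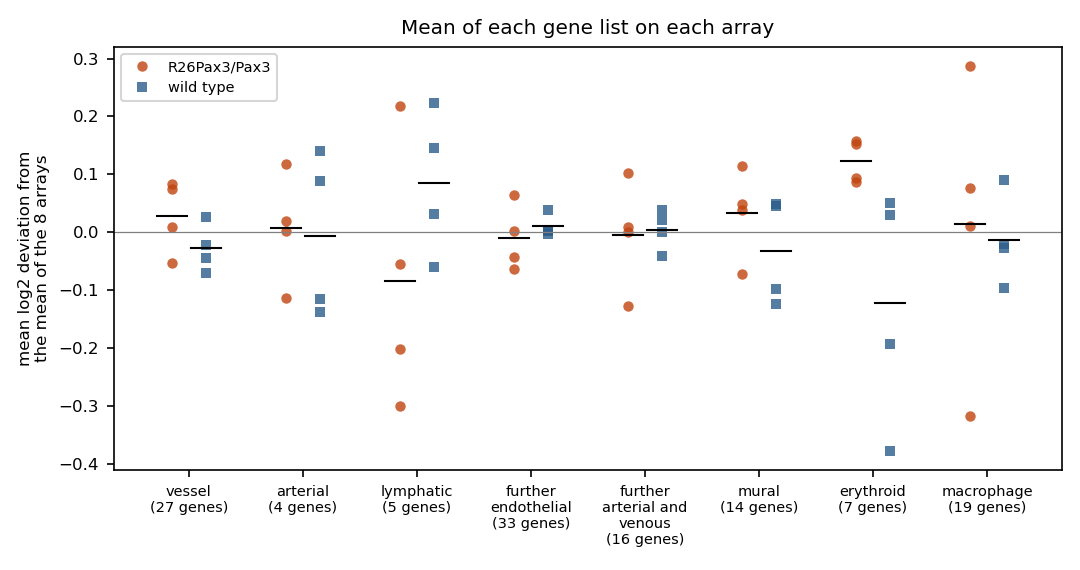
Mean log2 deviation from the mean of the 8 arrays for each list of genes, circles for R26Pax3/Pax3, squares for wild type and black bars for means. Vessel genes lie within -0.07 and 0.08 on all arrays, and of the lists plotted the groups lie apart for red cell (erythroid) genes only.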

How the data were processed

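The deposited table holds 1 linear intensity value per probe set and array. The submitters' processing notes name MAS5, without a version, for these intensities. MAS5 scales each array to a common level, so a change common to most genes would not be seen. No detection call was used, and the number of arrays limits the precision.

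Of 45101 probe sets, 64 controls were left out, and the annotation of the array gave gene names. Values were taken as log2(signal + 16). Those whose mean did not exceed the 40th percentile were dropped, and 27022 were fitted in R 4.3.3 with limma 3.58.1 (lmFit, eBayes with an intensity trend, no covariate, Benjamini-Hochberg adjustment). The fit was tested on simulated data with independent normal noise. The pass condition of that test covered only changes far larger than those of the members, so it does not speak for differences of their size. The members and lists were chosen with earlier results of these data known, so lists have counts and medians and no test. Array values are given for Pecam1, Cdh5, Kdr, Dll4, Sox17, Prox1 and Lyve1, for members whose chosen probe set had an unadjusted p under 0.05 or no overlap (0 members), and for the 2 members with the smallest p in each role. Results of genes in the further vessel and mural lists are given for an unadjusted p under 0.05 or no overlap. Vegfa and Angpt1 are given as ligands.

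Alternatives were another pseudocount, filter, scaling, covariate or variance model, all probe sets of a gene, and leaving out each array. The interaction with order of deposit was added after the data were seen.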

Additional observations from a re-analysis of the deposited data

Results flagged for a closer look

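Within a genotype, 5 of 72 sets of 4 arrays (36 genes in each genotype) held a value that stood far from the other 3, and about 1 in 20 such sets would by chance. Esam read 321.8 in R26Pax3/Pax3 replicate 1, where the next highest was 255.1. Kdr read 278.7 in wild type replicate 2, above 229.9, and Tie1 read 93.9 there, above 77.4. In that same array Fli1 read 116.2, the lowest of the wild type values, with the next at 138.7. Cd34 read 396.3 in wild type replicate 8, above 308.1.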

How the results depend on the processing

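Under all 17 alternatives 0 of 36 genes were called, and the lowest adjusted p of any gene was 0.768. The count at an unadjusted p under 0.05, 0 as reported, was 1 with order of deposit as a covariate (Plvap) and 1 without an intensity trend (Prox1), and it lay between 0 and 2 when an array was left out (Nrp1 without R26Pax3/Pax3 replicate 3, Plvap without 7, Tie1 and Nrp2 without wild type replicate 2, Sox17 and Prox1 without 6). With all probe sets of a gene averaged, a run left out of that count, Eng had 0.26 (limma adjusted p = 0.995, unadjusted 0.0271). The medians of the vessel, arterial and lymphatic genes moved by less than their SD between arrays, though the arterial median, 0.00 as reported, ran from -0.06 to 0.11 when an array was left out. Of the 36 genes, 20 kept their direction in every alternative run. In that averaging Cdh5 turned to -0.061, Flt1 to 0.063, Ets1 to 0.093, Dll4 to 0.081 and Acvrl1 to -0.055. Leaving out 1 array gave Pecam1 from -0.032 to 0.072, Cdh5 from -0.061 to 0.18, Kdr from -0.053 to 0.079, Flt1 from -0.20 to 0.083, Egfl7 from -0.054 to 0.0057, Ets1 from -0.11 to 0.057, Robo4 from -0.015 to 0.13, Icam2 from -0.0044 to 0.10, Vwf from -0.19 to 0.10, Ecscr from -0.078 to 0.037, Apln from -0.028 to 0.12, S1pr1 from -0.21 to 0.047, Dll4 from -0.20 to 0.10, Acvrl1 from -0.064 to 0.12, Pdpn from -0.31 to 0.24 and Flt4 from -0.10 to 0.026, on the log2 scale. The cause was not tested. At the 60th percentile filter 5 genes were not tested. No paired analysis was possible because the labels do not say which samples share a litter.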
